A study of Drosophila melanogaster with 2 samples.

Results

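Long non-coding RNA (lncRNA) genes are transcribed into RNAs that are not translated, and the positions scored here are the start sites of those lncRNA genes of Drosophila melanogaster that stand apart from protein-coding start sites. A start site was a member when its gene had the biotype ncRNA in the Ensembl annotation, was classed as a long or antisense non-coding RNA in RefSeq, and lay over 1 kb from every protein-coding start site. The RefSeq class was needed because the Ensembl biotype also holds microRNAs and other small RNAs: 2490 of its 3289 genes on the assembled chromosomes were of the long class. These 2490 genes had 2652 start sites, of which 1864, in 1764 genes, were members. All genes other than transposable elements together had 24111 annotated start sites. The rule for members used no measured value, though it was set with earlier results of these data known. The data are peak lists from chromatin immunoprecipitation with sequencing (ChIP-seq) of a fusion of the CG1024 gene product with enhanced green fluorescent protein (eGFP). Whole embryos of a transgenic CG1024-GFP strain, 0 to 24 hours old, formed 1 group with 2 biological replicates, both carrying the fusion. Chromatin was sonicated to pieces of 200 to 800 bp, per the labels, and an anti-GFP antibody pulled down the fusion protein. There was no second condition. Embryos of that age span all embryonic stages and cell types, so a peak does not say in which cells or at what age the protein was bound. Whether these lncRNA genes were transcribed in the embryos was not measured.

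Many lncRNA genes of the fly lie between protein-coding genes, or inside them on either strand, and most have no known function. A few have well-studied roles: roX1 and roX2 RNAs coat the male X chromosome with the dosage compensation complex, Hsromega organises nuclear bodies and responds to heat shock, and transcripts of flamenco are cut into small RNAs that silence transposable elements in ovarian somatic cells. Other lncRNA transcripts are the primary transcripts of microRNAs, short RNAs that lower the output of target messenger RNAs.

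The DNA under the strongest lncRNA-site summits is shown first, because the results below turn on where these summits lie and on the short sequences around them. A summit is the position within a peak that the peak caller reported as its highest point. The 8 windows reach 60 bp to each side of the 8 strongest summits that overlapped a thresholded peak of each replicate, taken from every chromosome and arm but the right arm of the second chromosome, whose sequence is not shown here. That leaves out the summits at CR44339, CR44810, CR45997 and CR46487, which had signals of 484, 360, 262 and 244 and a CACTG match within 100 bp each. They are given 5′ to 3′ on the strand of the lncRNA gene, from the dm6 assembly in RefSeq. Capitals mark matches to 5 sequences that were searched for: CACTG (reverse complement CAGTG), the DRE sequence TATCGATA, the E-box CAGCTG, the M1BP sequence GGTCACACT and the GAGA repeat GAGAGAG.
CR46450 (chr2L:23176125-23176245, plus strand): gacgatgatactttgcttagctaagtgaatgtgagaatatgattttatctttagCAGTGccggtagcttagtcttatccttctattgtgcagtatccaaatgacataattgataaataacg
CR31840 (chr2L:14024026-14024146, minus strand): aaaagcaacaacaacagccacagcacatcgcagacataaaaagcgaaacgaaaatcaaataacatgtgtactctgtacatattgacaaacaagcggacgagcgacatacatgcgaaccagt
CR31044 (chr3R:29214378-29214498, plus strand): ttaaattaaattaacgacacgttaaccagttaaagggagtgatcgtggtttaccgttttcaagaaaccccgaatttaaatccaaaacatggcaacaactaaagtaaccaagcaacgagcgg
CR44619 downstream summit (chrX:12752298-12752418, plus strand): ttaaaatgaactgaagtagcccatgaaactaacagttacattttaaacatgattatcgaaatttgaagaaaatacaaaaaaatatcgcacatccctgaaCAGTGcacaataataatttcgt
CR44619 upstream summit (chrX:12751392-12751512, plus strand): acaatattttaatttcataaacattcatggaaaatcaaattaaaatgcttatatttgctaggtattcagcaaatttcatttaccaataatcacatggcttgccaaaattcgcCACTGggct
CR46475 (chr3L:23279177-23279297, minus strand): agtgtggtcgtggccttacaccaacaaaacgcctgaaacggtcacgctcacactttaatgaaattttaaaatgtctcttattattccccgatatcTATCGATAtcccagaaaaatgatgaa
CR46102 (chr3R:25738132-25738252, plus strand): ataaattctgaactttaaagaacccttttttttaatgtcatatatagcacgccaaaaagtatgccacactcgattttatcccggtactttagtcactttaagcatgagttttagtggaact
CR42657 (chrX:9687737-9687857, plus strand): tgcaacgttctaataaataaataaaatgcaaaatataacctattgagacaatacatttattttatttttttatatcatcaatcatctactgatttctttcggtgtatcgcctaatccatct
The CACTG sequence or its reverse complement stood 6 bp before the summit at CR46450, 39 bp past the downstream summit of CR44619 and 52 bp past its upstream summit, counted to the first base of the match. The window at CR46475 held a DRE sequence starting 35 bp past the summit. The windows at CR31840, CR31044, CR46102 and CR42657 held no match to any of the 5 sequences within these 121 bp, though CR46102 had CACTG within 100 bp of its summit, and a match or its lack says nothing of what was bound. GC content ran between 25.6% at CR42657 and 41.3% at CR31840.

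A small share of lncRNA start sites had a CG1024-eGFP summit. Of the 1864 sites, 83 (4.45%, 95% Wilson interval 3.61 to 5.49) had a summit of the conservative series-level list within 500 bp. Protein-coding start sites had one at 12.7%, or 2488 of 19630. Of all bases over 1 kb from every protein-coding start site, 1.36% lay within 500 bp of a summit. The lncRNA share thus lay below that of protein-coding sites and above that of other sequence away from protein-coding sites. Since protein-coding sites often lie near one another, the 12230 that were over 1 kb from those of other protein-coding genes were counted on their own, and 8.17% of them had a summit, with an interval of 7.70 to 8.67 that does not meet that of lncRNA sites. Counted by gene, 77 of 1764 lncRNA genes (4.37%, 3.51 to 5.42) had a summit at a start site, against 14.1% of protein-coding genes. Intervals cover the counting of sites only: neighbouring sites can share a summit, and with 1 group of embryos no test over samples can be made of any of these shares.

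The surroundings of lncRNA sites had fewer summits than the sites themselves. Of bases 1 to 5 kb from a lncRNA site and over 1 kb from protein-coding sites, 1.67% lay within 500 bp of a summit, against 1.26% of bases over 5 kb from every lncRNA site. Sequence inside and outside protein-coding genes had like values, 1.37% and 1.34%.

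Each replicate gave the same order. In replicate 1, 59 lncRNA sites (3.17%, 2.46 to 4.06) had a thresholded summit, against 10.3% of protein-coding sites, 0.958% of bases away from protein-coding sites and 1.26% of bases 1 to 5 kb from a lncRNA site. In replicate 2, 60 lncRNA sites (3.22%, 2.51 to 4.12) had one, against 9.35%, 0.852% and 1.02% in the same order. Both replicates had a summit at 41 sites, which are 69.5% of the replicate 1 sites and 68.3% of the replicate 2 sites. In each replicate 55 lncRNA genes had a summit.

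**Figure D1:**
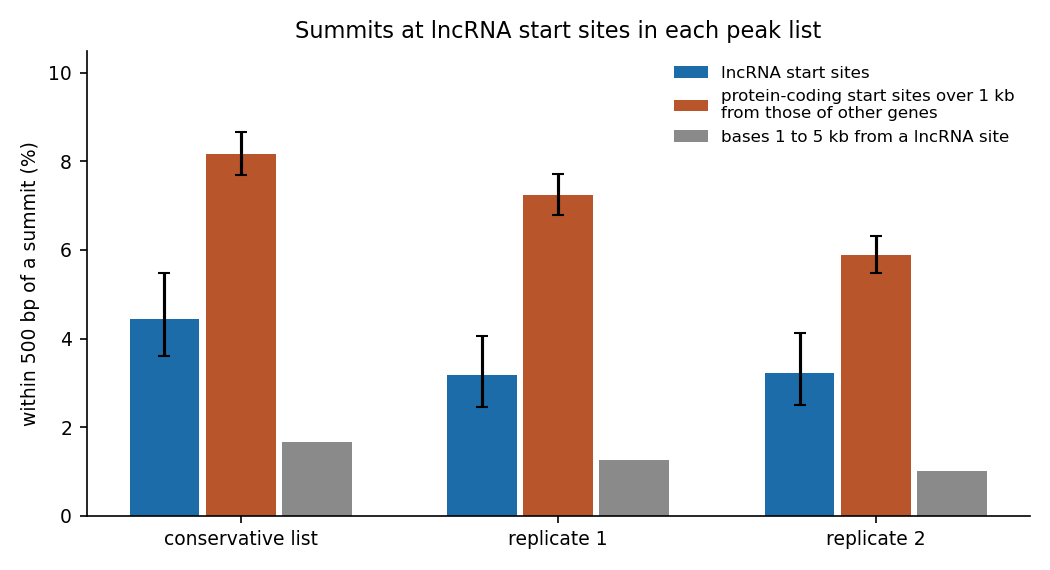
Share of lncRNA start sites, of protein-coding start sites over 1 kb from those of other protein-coding genes, and of bases 1 to 5 kb from a lncRNA site that lie within 500 bp of a summit (percent), in the conservative list and in each replicate's thresholded list. Lines are 95% Wilson intervals for sites; in all 3 lists the lncRNA bar (4.45%, 3.17% and 3.22%) stands between the other two.

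Shares were alike on both sides of the distance limit that set membership. Of lncRNA sites over 0.5 and up to 1 kb from a protein-coding site, just outside the limit, 18 of 314 (5.73%) had a summit, and of those over 1 and up to 1.5 kb away, just inside it, 12 of 206 (5.83%) did. The excluded sites within 500 bp of a protein-coding site had one at 59 of 474 (12.4%), near the 12.7% of protein-coding sites, whose window they share. Among members, the share was 6.25% at 1.5 to 2 kb (11 of 176) and 5.53% at 2 to 5 kb (33 of 597). Farther out it was 3.06% at 5 to 10 kb (12 of 392), 3.45% at 10 to 20 kb (10 of 290) and 2.46% beyond 20 kb (5 of 203). Every group of members up to 5 kb away was thus above every group beyond 5 kb, though the intervals of these groups overlap (3.36 to 9.90 for the nearest members and 1.06 to 5.64 for the farthest). The shares of bases given above were not split by this distance.

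The summits were spread over both sides of lncRNA start sites, unlike those at protein-coding sites. Of the 81 distinct conservative summits within 500 bp of a member, 45 (55.6%, 44.7 to 65.9) lay upstream and 36 downstream. At protein-coding sites, 1284 of 1547 summits (83.0%, 81.0 to 84.8) lay upstream. Within 100 bp of the start site lay 21 lncRNA-site summits (25.9%, 17.6 to 36.4), against 53.0% of protein-coding-site summits, and the median distance was 221 bp against 94 bp. These protein-coding values take the nearest of all 19630 start sites, which often lie near one another. The 12230 over 1 kb from those of other genes had 1047 summit and site pairs within 500 bp. Of these pairs, 400 lay within 100 bp and 847 upstream, against 22 and 50 of 87 pairs at lncRNA sites. The upstream share at lncRNA sites was 59.3% with replicate 1 alone and 55.2% with replicate 2 alone.

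Even so, summits were densest just upstream of the lncRNA start site. The 100 bp step on that side had 8.58 summits per 1000 sites (16 pairs). The step just downstream had 3.22 (6 pairs), no more than many steps farther out. Counting each summit and site pair, there were 59.0 summits per kb per 1000 lncRNA sites within 100 bp, 46.7 within 500 bp, 29.5 at 500 to 1000 bp and 33.5 at 1000 to 3000 bp. The isolated protein-coding sites had 164, 85.6, 38.7 and 33.7 over the same distances. At 1000 to 3000 bp both kinds of site thus had close values, and they differed at 500 to 1000 bp and more within 500 bp. These zones are not alike, however. By rule, starts of other protein-coding genes are lacking within 1 kb of both kinds of site. Beyond 1 kb they may be present, and their summits are counted there. The isolated protein-coding sites may also have other starts of their own gene within 1 kb (12230 sites in 8793 genes). The values at 1000 to 3000 bp are thus no measure of background. Replicate 1 gave 48.3 within 100 bp of lncRNA sites and 28.0 at 1000 to 3000 bp, and replicate 2 gave 42.9 and 22.9. In the 500 bp downstream of the start the order turned, with 39.7 at lncRNA sites and 32.7 at protein-coding sites. It was 25.8 against 32.2 in replicate 1 and 29.0 against 16.0 in replicate 2, so the replicates differ on that order.

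**Figure D2:**
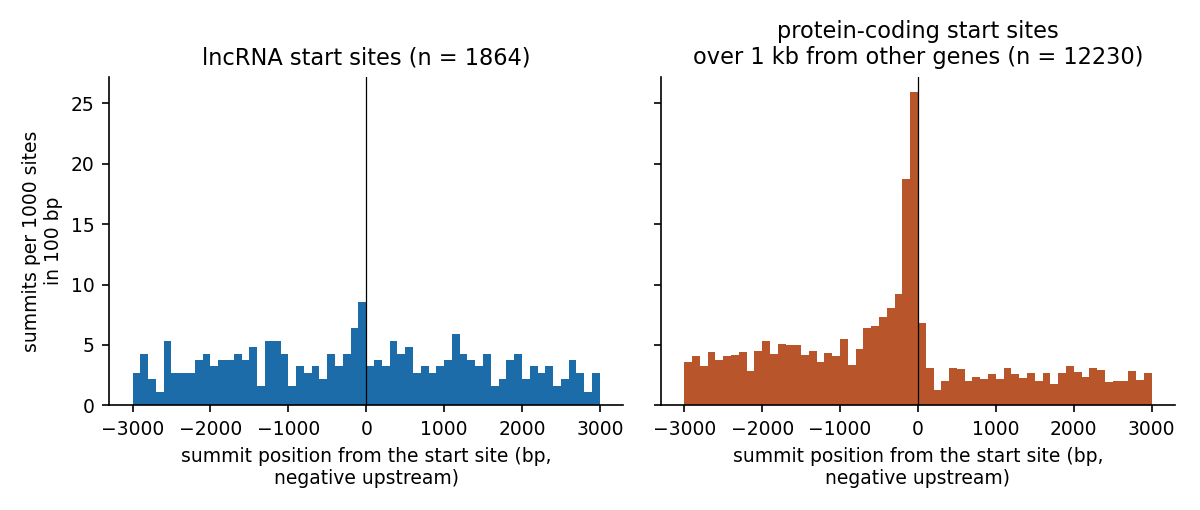
Conservative summits per 1000 start sites in steps of 100 bp along the 3000 bp on each side of the start site, for the 1864 lncRNA sites (left) and 12230 protein-coding sites over 1 kb from those of other genes (right). Negative positions are upstream. The lncRNA panel shows a low peak of 8.58 (16 pairs) just upstream of the start, the protein-coding panel a high one. Beyond 500 bp the lncRNA steps vary between 1.07 and 5.9.

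Shares were alike inside and outside protein-coding genes, with overlapping intervals. Sites outside protein-coding genes had a summit at 58 of 1256 (4.62%, 3.59 to 5.92), sites inside one on the opposite strand at 18 of 432 (4.17%, 2.65 to 6.49) and sites inside one on the same strand at 7 of 176 (3.98%, 1.94 to 7.98). Genes that RefSeq classes as antisense RNAs had a summit at 7 of 222 sites (3.15%) and the other long class at 76 of 1642 (4.63%). Genes of 1 exon had one at 4.35% of sites and genes of 2 or more exons at 4.62%. By gene length the share was 4.39% up to 0.5 kb, 3.10% at 0.5 to 1 kb, 5.37% at 1 to 2 kb and 6.88% above 2 kb, with overlapping intervals between neighbours in that order. Of the 81 summits, 55 were intergenic with respect to protein-coding genes, 24 were in their introns, 1 was in a coding exon (of l(3)mbn, at the antisense gene CR46005) and 1 in an untranslated exon (of CG43389). An exon of a lncRNA gene held 36 of them. Members themselves were placed alike: 67.4% of member sites lay outside protein-coding genes, and 69.1% of the 81 summits were at such sites. The shares of all conservative summits in these places were not counted. No lncRNA-site summit lay within 500 bp of the start of a small RNA gene or pseudogene, which allows a share of up to 4.53%. Only 34 of the 1864 member sites had such a start within 1 kb, and the share over all summits was not counted, so this 0 is a description only. In an annotated transposable element lay 1 of 81 (1.23%), at CR46488 on chromosome 4, against 1.18% of all conservative summits.

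The share was highest on 2R among X and the large arms in the conservative list, but the order of the arms did not hold in both replicates. On 2R, 22 of 264 lncRNA sites (8.33%, 5.57 to 12.3) had a summit, against 10 of 435 on 3R (2.30%, 1.25 to 4.18), 15 of 435 on 3L (3.45%), 20 of 472 on 2L (4.24%) and 12 of 214 on X (5.61%). Protein-coding sites did not follow that order, with 12.5% on 2R, 12.4% on 3R, 13.3% on 3L, 13.2% on 2L and 11.2% on X. In replicate 1 the lncRNA share was 7.20% on 2R (4.66 to 11.0), 2.80% on X, 2.75% on 2L, 2.53% on 3R (1.42 to 4.47) and 1.84% on 3L. In replicate 2 it was 5.14% on X, 4.17% on 2R (2.34 to 7.31), 3.39% on 2L, 2.53% on 3L and 1.61% on 3R (0.782 to 3.28), so that X stood above 2R and the intervals of 2R and 3R overlapped. On chromosome 4, a small and largely heterochromatic chromosome, 4 of 16 lncRNA sites had a summit (25.0%, 10.2 to 49.5), against 35.2% of protein-coding sites; these 4 sites share 2 summits. None of 28 sites on Y had one, which allows a share of up to 12.1%. Next to the centromeres, 7 of 72 lncRNA sites (9.72%, 4.79 to 18.7) had a summit, against 76 of 1792 (4.24%, 3.4 to 5.28) elsewhere. The intervals overlap, and the 7 sites share 5 summits, since 3 of them are start sites of CR46450 at 1 summit. Protein-coding sites had 31.9% next to the centromeres against 12.2% elsewhere. Of all bases away from protein-coding sites, 0.914% next to the centromeres and 1.45% elsewhere lay within 500 bp of a summit.

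**Figure D3:**
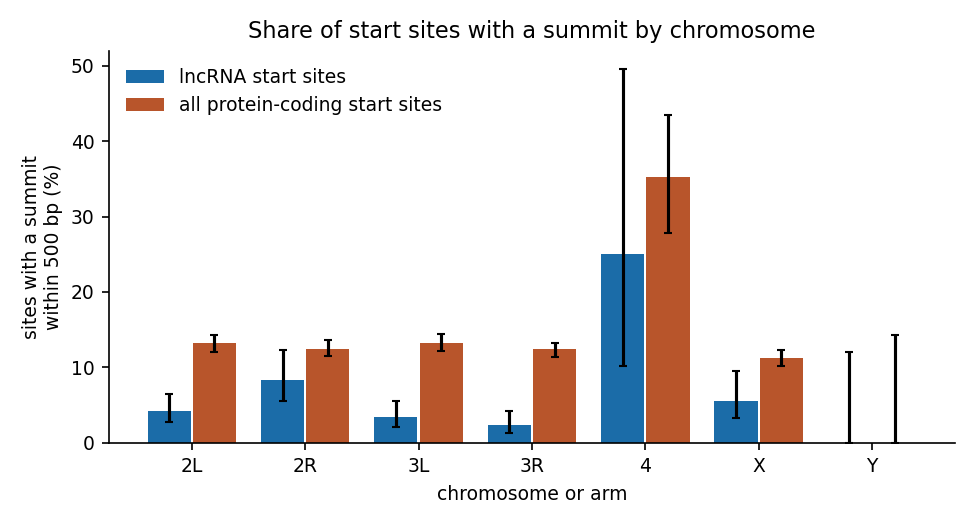
Share of start sites with a conservative summit within 500 bp (percent) on each chromosome or arm, for lncRNA sites (left bar of each pair) and all protein-coding sites (right bar). Lines are 95% Wilson intervals; the lncRNA bar is at 0 on Y, runs between 2.30% on 3R and 8.33% on 2R over X and the large arms, and reaches 25.0% on chromosome 4, where there are 16 sites, and the protein-coding bar between 11.2% and 13.3% on X and the 4 large arms.

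Peaks at lncRNA sites were about as strong as peaks elsewhere. The signal is the authors' own value for a peak, on a scale not given in the sources used here, and it is compared only within a list. The 81 lncRNA-site summits had a median signal of 92.6 (quartiles 73.6 and 167, range 6.15 to 731), the 1547 protein-coding-site summits 100, the 1769 summits over 500 bp from both 84.6, and all 3397 summits 91.0. Above the median of the whole list were 43 of the 81 (53.1%). In replicate 1 the overlapping ranked peaks of lncRNA-site summits had a median of 48.7, against 47.2 for all summits, and in replicate 2 the values were 45.3 and 44.8. Summits at sites inside a protein-coding gene on the opposite strand had a median of 112, those on the same strand 89.9 and those outside 92.2. The lowest signal, 6.15, was that of the summit at CR45940, in an intron of nkd, whose replicate values of 41.8 and 24.9 were not as far from the rest.

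A little over 1 in 2 lncRNA-site peaks were thresholded in both replicates. A peak of each replicate's thresholded list overlapped 43 of the 81 (53.1%, 42.3 to 63.6), against 56.0% of protein-coding-site peaks and 48.6% of all conservative peaks. Replicate 1 alone covered 14, replicate 2 alone covered 12 and neither covered 12 (14.8%, against 19.7% and 24.0%). The 43 had a median signal of 162 and the 12 found in neither list had 61.4. Thresholded lists select on peak rank, so this difference follows in part from the selection and is a description only. Across the 79 lncRNA-site summits with a ranked peak in each replicate, the 2 signals had a Spearman rho of 0.723 and a Pearson r of 0.855 on the log10 scale, against 0.804 and 0.911 over 1533 protein-coding-site summits. These describe agreement across summits that the authors selected for like rank in both replicates, and summits are not replicates.

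**Figure D4:**
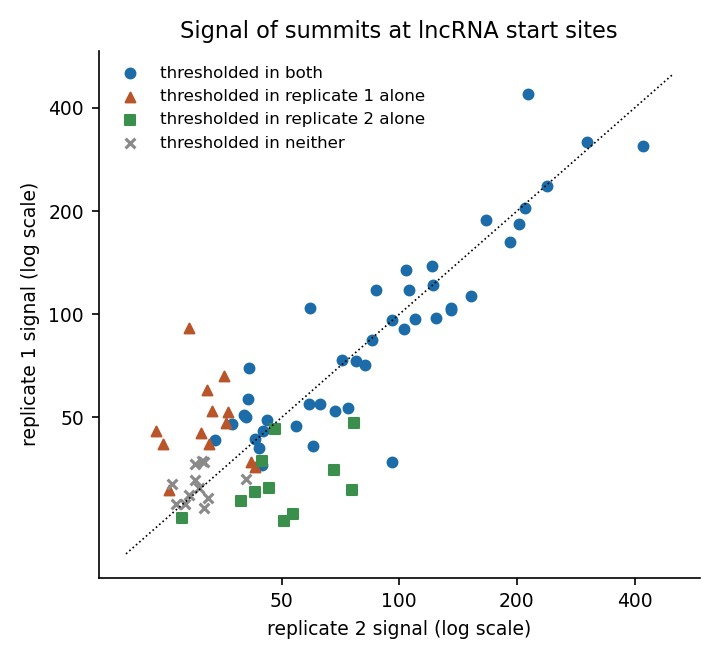
Signal of the 79 lncRNA-site summits that have a ranked peak in each replicate, in replicate 1 (vertical) and replicate 2 (horizontal), both on log scales, with symbols for the replicate lists in which the peak was thresholded. The dotted line marks equal values; summits thresholded in both replicates fill the upper range and those thresholded in neither lie at the low end.

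The strongest lncRNA-site peaks reached signals several times the median but not the strongest of the series, whose maximum was 1675. The highest, at CR46450 (FBgn0287461), lay on 2L near the centromere, where its start site was at 23176238 and its summit 53 bp before that, at 23176185. It had 731 in the conservative list, 310 in replicate 1 and 421 in replicate 2. All 3 start sites of CR46450 had this summit within 500 bp, and the nearest protein-coding start, of CG12567, was 1701 bp from the summit. CR31840 (FBgn0051840), a gene of 378 bp on 2L, had its summit at 14024086, 13 bp inside the gene, with 654 in the conservative list, 440 in replicate 1 and 214 in replicate 2. A weaker summit of 97.8 stood 470 bp upstream of CR31840, with 66.2 in replicate 1 and 35.7 in replicate 2. CR31044 (FBgn0051044, 3R) had its summit at 29214438, 124 bp upstream of its start, with 619, and 319 and 303 in replicates 1 and 2. CR44339 (FBgn0265427, 2R), 175 bp downstream of its summit at 12985192, had 484, with 237 and 239. The protein-coding start nearest to that summit, at 4198 bp, was that of Psc, a Polycomb group gene whose product helps to keep genes silent.

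At CR44619 (FBgn0265830, X) 2 strong summits flanked 1 start site. The summit at 12752358 lay 491 bp downstream with 412 (204 in replicate 1 and 210 in replicate 2), and that at 12751452 lay 415 bp upstream with 373 (184 and 202). Both lay over 5 kb from the nearest protein-coding start. CR44810 (FBgn0266045, 2R) had 360 at 24329570 (188 and 167), 160 bp upstream of 1 of its 3 member start sites. That start site lies inside the gene, which runs from 24325027 to 24330277, and the summit lay in an exon of a lncRNA gene. The protein-coding start nearest to that summit was that of slbo, a C/EBP transcription factor gene needed for border cell migration.

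Several of the strong summits lay within introns of protein-coding genes. CR46475 (FBgn0287606, 3L), transcribed from within nAChRalpha4, a nicotinic acetylcholine receptor subunit gene, on the opposite strand, had 359 at 23279237, 67 bp upstream of its start and 30208 bp from the protein-coding start (163 and 192). CR46102 (FBgn0267771, 3R), in an intron of the lipophorin receptor gene LpR2, had 263 (113 and 153). CR45997 (FBgn0267659, 2R), in mbl, which encodes the splicing factor muscleblind, had 262 (138 and 121). The antisense gene CR46487 (FBgn0287618, 2R), in an intron of CG17684 and 143622 bp from any protein-coding start, had its summit 1 bp before its start with 244 (104 and 136). In introns of the chromatin remodeller genes kis and osa lay CR44222 (FBgn0265153, 2L), 30 bp before its summit with 203 (118 and 87.2), and CR46036 (FBgn0267703, 3R), 180 bp past its summit with 176 (90.7 and 103). CR44867 (FBgn0266161, 2L), in beat-Ib, had 189 (96.8 and 110). All of these were thresholded in both replicates.

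The remaining genes among the 20 strongest lay between protein-coding genes. CR42657 (X) had 237, at a summit 731 bp from a start of nej, the CBP histone acetyltransferase gene, so that this peak was nearer to the protein-coding start than the member was allowed to be. CR44380 (2R) had 237, CR44676 (3L) 234, CR44363 (3L) 223 and CR46535 (2L) 192. On chromosome 4, CR44030 and CR45201 shared 1 summit with 219, at 1234 bp from the start of 4E-T, which encodes an eIF4E-binding protein. This was the only 1 of the 81 summits within 500 bp of start sites of 2 lncRNA genes.

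Genes that span a microRNA precursor on their own strand were looked at after their values had been seen, so their share is a description only. Of 33 such member genes, 7 had a summit at a start site (21.2%, 10.7 to 37.8), against 70 of 1731 other lncRNA genes (4.04%, 3.21 to 5.08). By start site it was 8 of 55 (14.5%, 7.56 to 26.2) against 75 of 1809 (4.15%). In the replicates the shares of sites were 9.09% against 2.99% in replicate 1 and 5.45% against 3.15% in replicate 2, the last resting on 3 sites of 55. The strongest was CR31044, described above, which spans mir-279 and mir-996, microRNAs known for a role in the formation of carbon dioxide sensing neurons. CR43626 (mir-282) had a summit of 108 in the conservative list, with 30.7 in replicate 1 and 75.8 in replicate 2, and another of 59.7 (32.9 and 30.0). The summit of 108 lay inside the gene, 253 bp upstream of an internal start site, and that of 59.7 lay 484 bp upstream of the gene. CR43651 (mir-14), whose microRNA limits cell death and fat storage, had 80.0 at 29 bp inside the gene (47.7 and 37.4). CR43650 (mir-8), whose microRNA promotes growth, had 75.9 (45.7 and 23.8) at 115 bp upstream of 1 of its 2 member start sites. That start site and the summit lie inside the gene, which begins at 16829095.

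The other 3 of these hosts had weaker peaks. CR43857 (mir-275) had 65.3 (31.1 and 30.7), CR43314 (mir-bft) 61.2 (30.8 and 25.7) and CR43334 (mir-ban, the bantam microRNA, which promotes growth and blocks cell death) 54.9 (27.9 and 28.3). Of the 7 hosts, CR31044 and CR43651 had a peak thresholded in both replicates, CR43650 and CR43314 in replicate 1 alone, CR43626 in replicate 2 alone, and CR43857 and CR43334 in neither. CR45345 (mir-375), the next in distance, had its nearest summit 588 bp away, just beyond the window. The other 25 ranged between 1812 and 94085 bp, among them let7C, the host of mir-100, mir-125 and mir-let7, at 21873 bp.

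**Figure D5:**
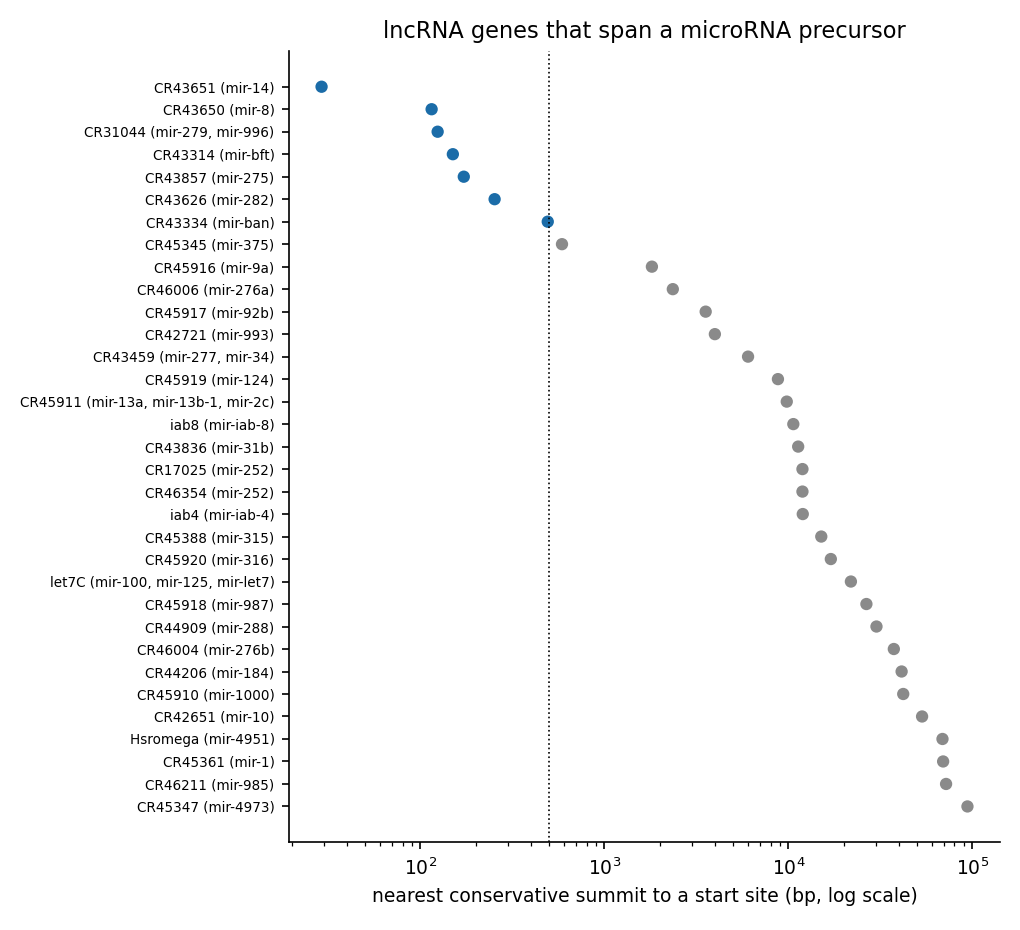
Distance between each of the 33 lncRNA genes that span a microRNA precursor (rows, microRNA names in brackets) and the nearest conservative summit to one of its start sites (bp, log scale). The dotted line marks 500 bp; 7 genes lie inside it, from 29 bp at CR43651 to 492 bp at CR43334.

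The well-studied lncRNA genes mostly had no summit, like the member genes as a whole. Of a list of known lncRNA genes, 15 had member start sites, and flam was the only 1 of them with a conservative summit within 500 bp: it lay 136 bp upstream of a start site on X with 60.7 (37.1 in replicate 1 and 31.6 in replicate 2), below the median of 92.6, and was thresholded in neither replicate. That is 1 of 15 beside the 4.37% of all member genes. For the dosage compensation genes the nearest summits were 5962 bp from a roX1 start and 29983 bp from that of roX2. In the Hox complexes they were 25690 bp from bxd and 10639 bp from iab8. Vinr, which overlaps CR44619 and spans its start site, had one 1101 bp from its own start, Uhg7 at 1438 bp and Uhg3 at 8799 bp; the Uhg genes host small nucleolar RNAs. For let7C, cherub, acal, yar, CRG and noe the distances ran between 11279 bp at acal and 41572 bp at CRG.

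Hsromega differed among these in the ranked list, which keeps weaker peaks. The irreproducible discovery rate (IDR) is the authors' measure of how far a peak's rank holds in both replicates. Hsromega had a ranked peak within 500 bp of signal 74.7 and a global IDR of 0.127% (49.4 and 31.7 in replicates 1 and 2), yet it was not in any of the thresholded lists, and its nearest conservative summit was 68829 bp away. It was the only member gene with a ranked peak at or below a global IDR of 1% and no conservative summit. Some hosts of small nucleolar RNAs lay too close to protein-coding starts to be members. Of these, Uhg4, whose start site was 615 bp from that of Boot, had a summit at 67 bp with 253 (152 and 97.7). Uhg2 had one at 33 bp with 54.2 (30.2 and 29.3). Uhg1, Uhg5, Uhg8 and sphinx, also excluded by distance, had none within 500 bp.

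Weak peaks were common at lncRNA sites and at protein-coding sites alike. The share of all bases near a ranked peak was not counted, so these shares cannot be set against other sequence. Many ranked peaks were poorly reproducible: near the known lncRNA genes the global IDR ran between 0.001% at Uhg4 and 88.0% at roX1, roX2, Uhg7 and let7C. In the ranked series-level list 1365 of 1864 lncRNA sites (73.2%) had a peak within 500 bp, against 77.8% of protein-coding sites, with a median best signal of 22.2 against 28.1. The share was 55.1% against 69.4% in replicate 1 and 66.6% against 68.3% in replicate 2. Of the 1781 lncRNA sites without a conservative summit, 1282 had a ranked peak in the series-level list, with a median best signal of 21.5 and a maximum of 74.7, at Hsromega.

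The 81 windows at lncRNA-site summits were too few to set their sequence content apart from that of other summits. Windows of 201 bp were searched on both strands, and matches to the 5 sequences can overlap one another. CACTG or its reverse complement was in 46 of 81 lncRNA-site windows (56.8%, 45.9 to 67.0), in 47.6% of protein-coding-site windows and in 55.2% of windows away from both. The same length around lncRNA start sites held it in 38.6% of sites with a summit and 32.8% of sites without. The DRE sequence, found in many promoters of broadly expressed genes, was in 2 lncRNA-site windows (2.47%, 0.68 to 8.56), against 8.02% of protein-coding-site windows and 1.07% of the others. The M1BP sequence, another promoter element, was in 0 of 81, which allows up to 4.53%, against 4.27% and 0.226%. The E-box CAGCTG was in 4 (4.94%, 1.94 to 12), against 12% and 6.73%, and the GAGA repeat was also in 4 (4.94%), against 3.49% and 3.22%. Median GC content was 36.3% in all 3 kinds of window. Around lncRNA start sites it was 45.3% where a summit was present and 41.3% where none was.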

How the data were processed

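The authors deposited peak lists of 2 ChIP-seq replicates in 1 group, thresholded and ranked, per replicate and for both together; per the labels the build is dm6. Neither the aligner nor the caller is given in the sources used here. The deposited lists give a signal per peak, the authors' own value of unstated scale, plus a score that rises with reproducibility. In the ranked lists the authors also deposited the −log10 of the IDR. There are no read counts, so the depth is unknown and intervals cover counting error only.

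Summits were taken as the peak start plus the deposited offset, made 1-based, and kept on 7 chromosomes (X, Y, 4 and the arms 2L, 2R, 3L and 3R), which leaves out 4 of 3401 conservative peaks. Start sites came from Ensembl release 115 and long classes from RefSeq, matched by symbol. A replicate's value for a summit is the highest signal among its ranked peaks that overlap the peak; for genes without a conservative summit, and for Uhg4 and Uhg2, it is the highest ranked signal within 500 bp. Sequence next to a centromere began at 22 Mb on 2L and X and at 23 Mb on 3L, and was the first 6 Mb of 2R and the first 5 Mb of 3R. Intervals are 95% Wilson intervals. Named genes are the 20 lncRNA genes with the strongest summits and the members of lists of known lncRNA genes, of which IBIN, msa and bft matched no symbol; the 7SL, RNase P and RNase MRP RNAs are not of the long class, and had no summit within 500 bp. Other genes were named after their values were seen. The members and lists were chosen with earlier results of these data known. The distance functions were tested on simulated summits. Work was done with pandas 2.3.3 and numpy 2.4.6, intervals with scipy 1.17.1 and figures with matplotlib 3.10.9, under Python 3.11.15. Alternatives changed the peak list, the window, the distance limit and the sites kept; those on the biotype and on a global IDR of 0.01 were chosen after seeing the data.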

Additional observations from a re-analysis of the deposited data

How the results depend on the processing

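The share of lncRNA start sites with a summit (4.45%, or 4.37% of genes) kept within its interval under 9 of 16 alternatives for each, which took it between 3.78% and 5.04% of sites and 3.69% and 4.99% of genes. It moved where the list or window changed in size: with each replicate alone to between 3.17% and 3.22% of sites and 3.12% of genes, with peaks of above-median signal to 2.47% and 2.38%, and with peaks overlapping both replicates by 1 in 2 of their bases or more to 2.41% and 2.32%. A window of 200 bp gave 2.20% and 2.15%, one of 1000 bp gave 6.71% and 6.58%, and members at any distance from protein-coding sites gave 6.03% and 5.98%. The median signal of 92.6 kept within its interval (83.8 to 112) under 12 of 16; it was 60.1 and 68.5 with the replicates alone, whose lists have their own scale, and 162 for peaks overlapping both replicates under either minimum overlap. The upstream share of 55.6% kept within its interval under all 16, between 52.3% and 64.9%. No paired analysis was possible because there is 1 group. Limits are the unknown depth and embryos of mixed age.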
